A study of Mus musculus with 4 samples.

Results

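Endothelial and angiogenesis genes are 36 genes of the cells that line blood and lymph vessels, of the adhesion molecules through which leukocytes leave the blood, and of the secreted factors that make vessels grow. They were chosen by gene symbol, with an exact match, from 20611 gene symbols in the deposited tables, and all 36 were found. They were described in 4 subgroups: 22 blood vessel genes, 4 lymphatic genes, 5 leukocyte adhesion genes and 5 genes of growth factor ligands. The RNA came from dorsal (back) skin. The animals were BALB/c males, 8 to 9 weeks old, and all had 5% imiquimod (IMQ) cream, 47 mg per day, on the back skin from day 1 to day 5, and skin was taken on day 6. The groups were 1 library of skin with IMQ and a lotion that held IDMF (IMQ+IDMF), 2 libraries of skin with IMQ and vehicle lotion (IMQ+VEH, replicates 1 and 2) and 1 library of skin with IMQ only (IMQ). IDMF is in full isosorbide di-(methyl fumarate), and its lotion and the vehicle lotion went on about 1 h after the cream. Imiquimod, a ligand of Toll-like receptor 7, gives mouse skin a psoriasis-like inflammation. Skin without imiquimod was not analysed here, so all comparisons are within imiquimod-treated skin. Per the labels, the libraries are biological replicates that are independent of each other.

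Endothelial cells carry receptors for vascular endothelial growth factors, which drive vessels to sprout and leak, and TIE receptors for angiopoietins, which keep vessels quiet or loosen them. When skin is inflamed, the endothelium puts selectins and immunoglobulin-type adhesion molecules on its surface, and leukocytes roll and hold on these before they enter the tissue. Widened and elongated capillaries of the upper dermis are a known feature of psoriasis. In whole skin, endothelial cells are a small part of the tissue, and several of these genes are also used elsewhere. Keratinocytes make VEGF-A and ICAM-1, fibroblasts and keratinocytes make podoplanin, and some macrophages carry LYVE-1.

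The IMQ+IDMF library held 21991604 counts, the IMQ+VEH libraries 26639628 (replicate 1) and 21167149 (replicate 2), and the IMQ library 26337985. The 36 genes together took 0.0604% of the counts in IMQ+IDMF, 0.0865% and 0.0415% in IMQ+VEH replicates 1 and 2, and 0.0385% in IMQ. Levels are given as CPM, counts relative to the scaled library size, and between genes as FPKM, which also divides by transcript length. The detection floor of 3 counts was worth 0.107 to 0.146 CPM, which covers counting error only. Over all 15068 genes that passed the filter on low counts, the root mean square difference in log2 CPM between the 2 IMQ+VEH libraries was 0.64. IMQ+IDMF lay 0.59 from replicate 1 and 0.56 from replicate 2. All 36 members passed the filter. Only IMQ+VEH was replicated, so the spread of that pair stood for the spread of every group in the tests, and the difference within the pair is given beside each difference between groups. Keratinocyte markers, which define the labelled tissue, were present in every library. Krt5, a basal keratin, had 4878 CPM in IMQ+IDMF, 3727 and 4056 CPM in IMQ+VEH replicates 1 and 2, and 4556 CPM in IMQ.

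Promoter windows of 250 bases upstream of the RefSeq start, on build GRCm38.p6, were found for 21 of the 36 members. Endothelial genes are commonly bound by ETS family transcription factors, whose sites hold the core GGAA. The windows of 4 members are shown here: Flt1 and Eng stand for the 18 blood vessel genes that shared 1 order of libraries, Selp for the member with the widest gap between IMQ+IDMF and an IMQ+VEH library, and Apln for the 1 member that was not highest in IMQ+VEH replicate 1. They are written from 5′ to 3′ on the gene's own strand, and capitals mark AGGAAG or its reverse complement. Flt1 is at chr5:147726012-147726261 (minus strand), Eng at chr2:32646345-32646594 (plus), Selp at chr1:164115014-164115263 (plus) and Apln at chrX:48034854-48035103 (minus).
Flt1: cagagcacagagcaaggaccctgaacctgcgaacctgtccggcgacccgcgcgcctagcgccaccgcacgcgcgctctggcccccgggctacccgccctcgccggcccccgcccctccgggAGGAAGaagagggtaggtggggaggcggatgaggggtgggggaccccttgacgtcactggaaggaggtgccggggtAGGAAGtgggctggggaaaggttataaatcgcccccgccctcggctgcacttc
Eng: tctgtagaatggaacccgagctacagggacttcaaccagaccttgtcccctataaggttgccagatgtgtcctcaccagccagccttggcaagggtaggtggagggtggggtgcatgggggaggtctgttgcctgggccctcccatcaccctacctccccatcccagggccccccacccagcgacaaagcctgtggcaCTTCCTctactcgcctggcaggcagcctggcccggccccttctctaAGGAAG
Selp: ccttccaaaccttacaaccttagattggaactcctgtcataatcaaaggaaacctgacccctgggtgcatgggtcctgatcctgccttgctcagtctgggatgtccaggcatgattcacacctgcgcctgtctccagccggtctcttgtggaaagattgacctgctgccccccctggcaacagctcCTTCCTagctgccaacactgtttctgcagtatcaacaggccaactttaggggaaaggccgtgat
Apln: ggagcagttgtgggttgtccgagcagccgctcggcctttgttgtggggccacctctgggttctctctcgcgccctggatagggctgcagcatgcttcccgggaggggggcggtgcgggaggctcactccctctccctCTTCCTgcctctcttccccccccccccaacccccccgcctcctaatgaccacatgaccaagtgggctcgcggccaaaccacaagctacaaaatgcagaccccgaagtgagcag
The Flt1 window held AGGAAG 129 to 124 and 53 to 48 bases before the start, with TATAAA at 31 to 26 and a match to the NF-kB consensus at 92 to 83. In the Eng window AGGAAG lay directly before the start, at 6 to 1, and on the other strand at 52 to 47. Selp had its match on the other strand at 64 to 59, and Apln at 113 to 108, with AACAAAG, a SOX motif, on the other strand at 215 to 209. Over both strands, AGGAAG or CGGAAG was found in windows of 11 of the 21 members. By window this was 12 of 27 members' windows, against 39.2% of all 32851 windows. The NF-kB consensus was found in 3 of 27 windows (Flt1, Kdr and Vegfa) against 3.90% of all, AACAAAG in 3 of 27 against 5.03%, ACGTG, the core of hypoxia response elements, in 2 of 27 against 16.6%, and TATAAA in 4 of 27 against 12.4%. The motifs did not overlap each other in the 4 windows shown. A match describes the letters only.

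Vessel genes shared a layout across the libraries, in which the 2 IMQ+VEH libraries lay far apart. Replicate 2 was lower than replicate 1 for 36 of 36 members, against 53% of all genes tested, and lower by more than 2-fold for 20 members, against 8.08% of all genes. IMQ+VEH replicate 1 was the highest of the 4 libraries for 35 members, against 29% of all genes. Apln, which codes for the ligand apelin, was the exception. For 21 members the order from high to low was IMQ+VEH replicate 1, IMQ+IDMF, IMQ+VEH replicate 2, IMQ, an order that 8.64% of all genes had. Another 8 members differed from it in that IMQ lay above IMQ+VEH replicate 2, an order of 4.67% of all genes. The order of the 21 members was not particular to vessel genes. It was also that of 5 of 6 adipocyte, 4 of 6 smooth muscle, 4 of 6 skeletal muscle and 5 of 8 pericyte markers. No fibroblast, macrophage or keratinocyte marker had it. IMQ was the lowest library for 24 members (29% of all genes) and IMQ+VEH replicate 2 for 11 (23.8%). The median difference in log2 CPM of replicate 2 to replicate 1 was -1.05 over the members, with a range of -1.88 (Lyve1) to -0.08 (Vegfc), beside -0.03 over all genes tested. In bulk skin, fewer endothelial cells, less endothelial RNA per cell, a smaller share of dermis in the piece and a batch cannot be told apart.

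**Figure D1:**
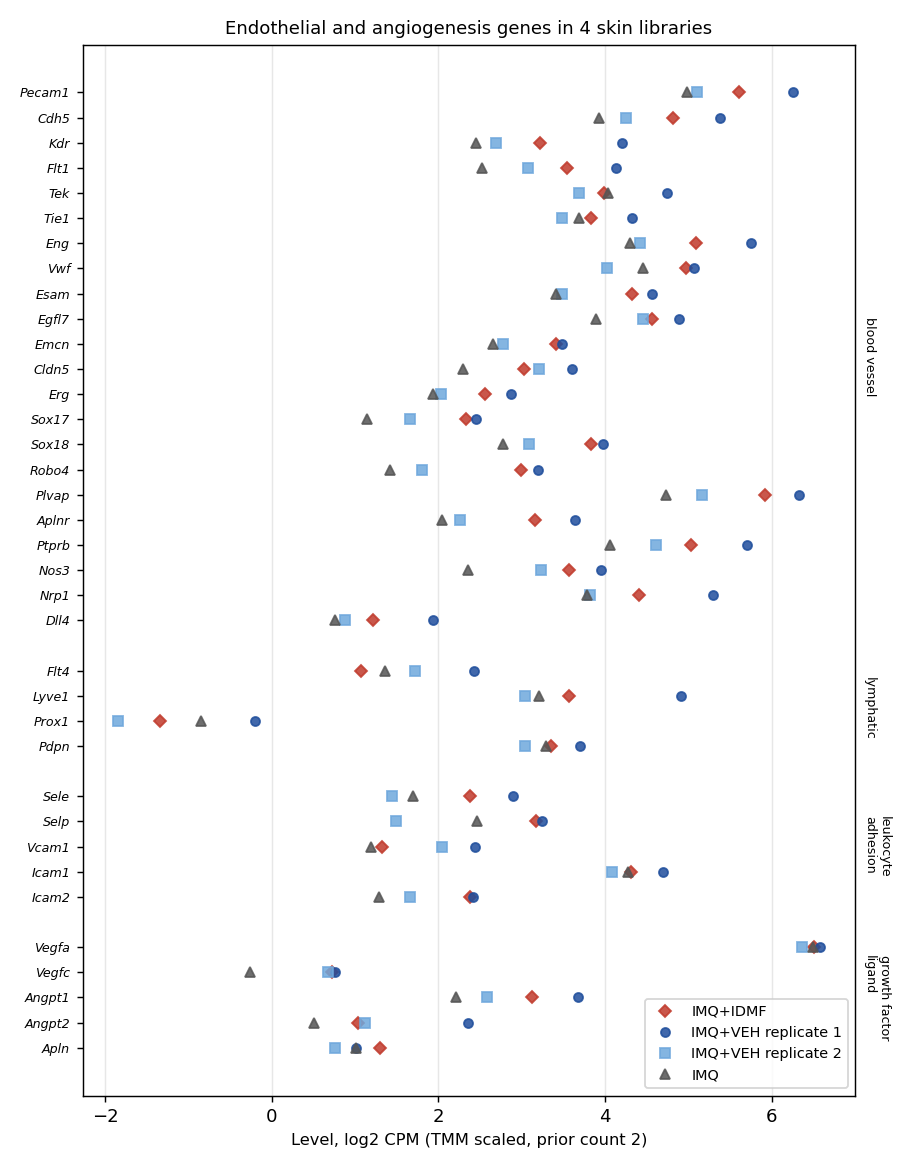
Level of each of the 36 members (log2 CPM, horizontal axis) in IMQ+IDMF, IMQ+VEH replicates 1 and 2 and IMQ, each point 1 library, with members grouped by subgroup. IMQ+VEH replicate 1 lies at the right for 35 of 36 members, and IMQ lies at the left for 24.

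By FPKM, means over the 4 libraries ran over a wide range between members. Vegfa, the main growth factor for endothelium, stood at the top with 22.1 FPKM in IMQ+IDMF, 24.5 and 19.6 in IMQ+VEH replicates 1 and 2, and 20.8 in IMQ. Plvap, which forms the diaphragms of fenestrated capillaries, had 24.1 FPKM in IMQ+IDMF, 34.2 and 14.0 in IMQ+VEH replicates 1 and 2, and 10.1 in IMQ. Egfl7, a secreted endothelial protein, had 15.6 FPKM in IMQ+IDMF, 21.0 and 14.5 in IMQ+VEH, and 9.12 in IMQ. Its exons overlap Gm20532 and Mir126a on the same strand, and Agpat2 and Mir126b on the other. Reads of these neighbours may not be told apart from its own. The ranges of Vegfa, Plvap and Egfl7 overlap, so their order is not separated by the spread between libraries. At the low end Apln averaged 0.484 FPKM, Flt4 0.424 FPKM and Prox1, the transcription factor of lymphatic identity, 0.0827 FPKM. Prox1 rested on 7 counts in IMQ+IDMF, 22 and 4 in IMQ+VEH and 12 in IMQ. Its highest library, at 0.155 FPKM, lay below the lowest library of every other member.

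IMQ+IDMF against IMQ+VEH is the test of the compound, with the lotion itself on both sides. For most vessel genes IMQ+IDMF lay between the 2 vehicle libraries, below replicate 1 and above replicate 2. This held for 31 of 36 members, against 22.9% of all genes tested in that direction and 44.8% between the pair in either, and for 21 of 22 blood vessel genes. A library falls between 2 others more readily where these lie far apart, as the vehicle pair did for the members. The shares of all genes are not matched for that gap, so this count is no result separate from it. The median difference in log2 CPM over the members was -0.49 to replicate 1 and 0.53 to replicate 2, and -0.01 to their mean. Over all genes tested these medians were -0.00, 0.00 and 0.01. No member was called by edgeR's quasi-likelihood test with Benjamini-Hochberg adjustment, where 0% of all genes were called. None had an unadjusted p under 0.05, where 306 of the 15068 genes did, and every member had an adjusted p of 1. DESeq2 also called 0 members. Fitted log2 fold changes ran from -1.08 (Flt4) to 0.54 (Selp), with standard errors (SE) of 0.27 to 1.28, so differences of this size could not be told from the spread of the pair. Against a single vehicle library the direction turned: IMQ+IDMF was above for 32 members without IMQ+VEH replicate 1, and for 1 member without replicate 2.

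**Figure D2:**
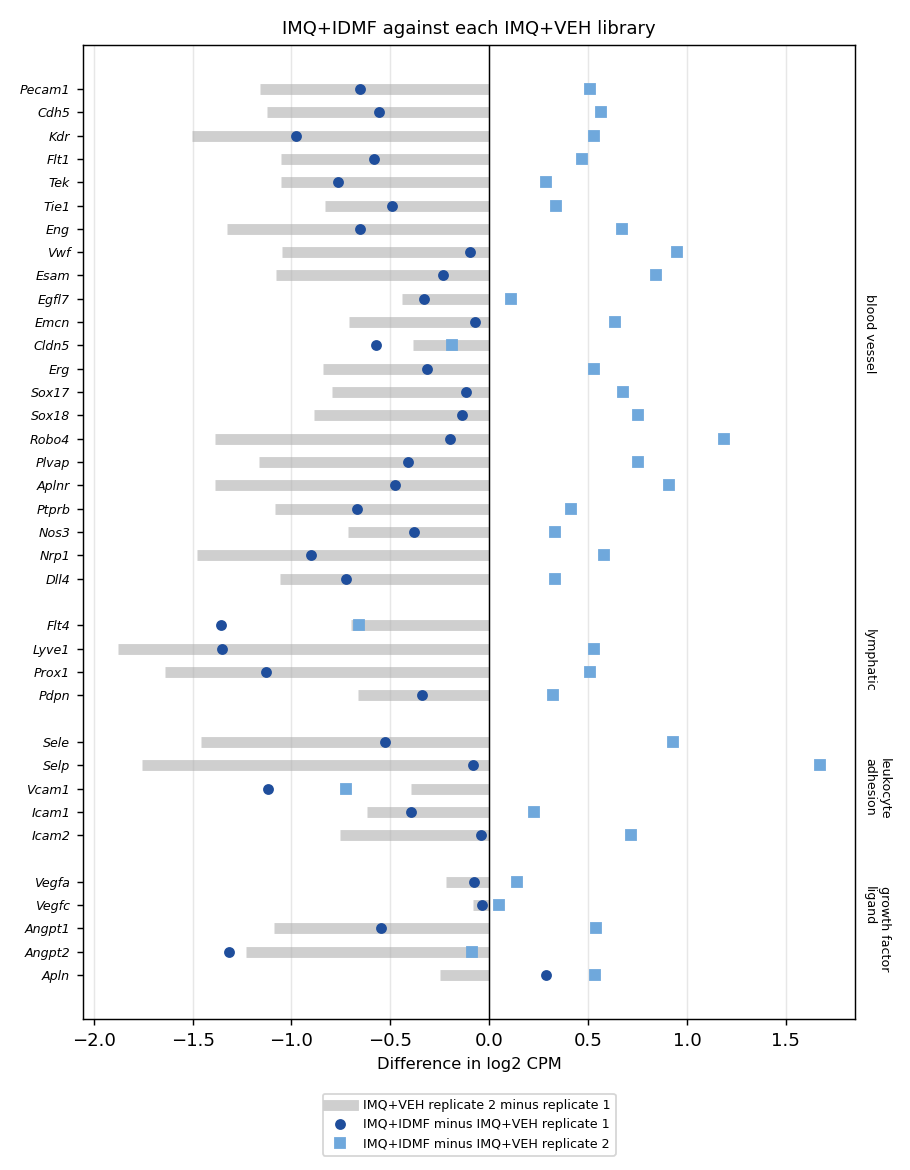
Difference in log2 CPM of IMQ+IDMF to IMQ+VEH replicate 1 (circles) and to replicate 2 (squares) for each member, with the difference of replicate 2 to replicate 1 as a grey bar from 0. For 31 members the circle lies below 0 and the square above it, and the bar is negative for all 36.

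Among receptors of the blood vessel endothelium, Kdr, the main signalling receptor for VEGF-A, had 9.26 CPM in IMQ+IDMF, 18.3 and 6.39 CPM in IMQ+VEH replicates 1 and 2, and 5.36 CPM in IMQ. Flt1, a VEGF receptor that also acts as a decoy, had 11.6 CPM in IMQ+IDMF, 17.4 and 8.34 CPM in IMQ+VEH, and 5.67 CPM in IMQ. Nrp1, a VEGF co-receptor that other skin cells use too, had 21.0 CPM in IMQ+IDMF, 39.2 and 14.0 CPM in IMQ+VEH, and 13.6 CPM in IMQ. In each of these, IMQ+IDMF lay inside the range of the vehicle pair, and the fitted log2 fold changes were -0.42 (SE 0.55), -0.16 (SE 0.46) and -0.35 (SE 0.48). Tek, the angiopoietin receptor TIE2, had 15.7 CPM in IMQ+IDMF, 26.7 and 12.8 CPM in IMQ+VEH, and 16.2 CPM in IMQ. Tie1, its partner receptor, had 14.1 CPM in IMQ+IDMF, 19.9 and 11.1 CPM in IMQ+VEH, and 12.8 CPM in IMQ. These TIE receptors differed less from IMQ than Kdr and Flt1 did, in log2 CPM and with 1 library on each side. IMQ+IDMF minus IMQ was -0.05 for Tek and 0.14 for Tie1, and 0.78 for Kdr and 1.02 for Flt1. Flt4, a VEGF receptor given with the lymphatic genes, was below IMQ. Aplnr, the apelin receptor, had 8.85 CPM in IMQ+IDMF, 12.4 and 4.68 CPM in IMQ+VEH, and 4.02 CPM in IMQ. Robo4, a guidance receptor that stabilises vessels, had 7.87 CPM in IMQ+IDMF, 9.05 and 3.41 CPM in IMQ+VEH, and 2.60 CPM in IMQ. For both genes IMQ+IDMF and replicate 1 lay high, and replicate 2 and IMQ low, so the vehicle libraries were apart.

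Junction and surface genes showed the same layout. Pecam1, an adhesion molecule of endothelial contacts, had 48.6 CPM in IMQ+IDMF, 76.4 and 34.1 CPM in IMQ+VEH replicates 1 and 2, and 31.6 CPM in IMQ. Cdh5, the cadherin of endothelial adherens junctions, had 28.1 CPM in IMQ+IDMF, 41.4 and 18.9 CPM in IMQ+VEH, and 15.2 CPM in IMQ. Their log2 fold changes between IMQ+IDMF and IMQ+VEH were -0.19 (SE 0.39) and -0.10 (SE 0.40). Cldn5, the claudin of endothelial tight junctions, was the 1 blood vessel gene outside the vehicle range, with 8.05 CPM in IMQ+IDMF, 12.0 and 9.17 CPM in IMQ+VEH, and 4.81 CPM in IMQ. Its differences to replicates 1 and 2 were -0.57 and -0.19 in log2 CPM, and the larger of these exceeded the -0.39 within the pair. Eng (a co-receptor of the TGF-beta family), Esam, Emcn and Ptprb all lay between the 2 vehicle libraries. So did Vwf, the platelet-binding von Willebrand factor, with 31.2 CPM in IMQ+IDMF, 33.3 and 16.1 CPM in IMQ+VEH, and 21.9 CPM in IMQ. Nos3, the endothelial nitric oxide synthase, had 11.8 CPM in IMQ+IDMF, 15.3 and 9.32 CPM in IMQ+VEH, and 5.04 CPM in IMQ. The transcription factors Erg, Sox17 and Sox18, which maintain endothelial identity, also lay inside the vehicle range, with log2 fold changes of 0.04 (SE 0.53), 0.23 (SE 0.58) and 0.24 (SE 0.43). Dll4, the Notch ligand of sprouting tip cells, had 2.24 CPM in IMQ+IDMF, 3.74 and 1.76 CPM in IMQ+VEH, and 1.62 CPM in IMQ.

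Among the lymphatic genes, Flt4, the receptor for VEGF-C on lymphatic endothelium, was the 1 member for which IMQ+IDMF was the lowest of the 4 libraries. It had 45 counts, or 2.01 CPM, in IMQ+IDMF, 5.28 and 3.22 CPM in IMQ+VEH replicates 1 and 2, and 2.48 CPM in IMQ. IMQ+IDMF was the lowest library for 19.5% of all genes. The log2 fold change to IMQ+VEH was -1.08 (SE 0.64, edgeR adjusted p = 1), and the smaller of its differences to the single vehicle libraries, -0.66, was about the size of the -0.70 within the pair. Flt4 lies on chromosome 11 (49609263 to 49652739, GRCm38). Lyve1, a hyaluronan receptor of lymphatic endothelium and of some macrophages, had 11.7 CPM in IMQ+IDMF, 30.0 and 8.10 CPM in IMQ+VEH, and 9.14 CPM in IMQ. Replicate 1 stood far above the other 3 libraries, and the -1.88 within the vehicle pair was the widest of all members. Prox1 had 0.313 CPM in IMQ+IDMF, 0.784 and 0.195 CPM in IMQ+VEH, and 0.473 CPM in IMQ. Pdpn, podoplanin, had 10.2 CPM in IMQ+IDMF, 12.9 and 8.10 CPM in IMQ+VEH, and 9.69 CPM in IMQ. Both lay within the vehicle range. Macrophage markers, which bear on Lyve1, were below both vehicle libraries in IMQ+IDMF for 8 of 8 genes (27.5% of all genes). Their summed level was 312 CPM in IMQ+IDMF, 454 to 823 CPM in IMQ+VEH and 541 CPM in IMQ, with no marker at 0 in all libraries. Their part in the Lyve1 values was not tested.

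Of the leukocyte adhesion genes, 4 of 5 lay between the vehicle libraries in IMQ+IDMF, against 44.8% of all genes, and Vcam1 did not. Selp, Sele and Icam1 had the order IMQ+VEH replicate 1, IMQ+IDMF, IMQ, IMQ+VEH replicate 2, which 4.67% of all genes had. Selp, P-selectin, which is stored in endothelial cells and catches rolling leukocytes, had 8.90 CPM in IMQ+IDMF, 9.41 and 2.73 CPM in IMQ+VEH replicates 1 and 2, and 5.44 CPM in IMQ. IMQ+IDMF was close to replicate 1, with replicate 2 far below all others, and the log2 fold change was 0.54 (SE 0.61). Sele, E-selectin, which is made by endothelium in inflammation, had 5.10 CPM in IMQ+IDMF, 7.38 and 2.63 CPM in IMQ+VEH, and 3.15 CPM in IMQ. Vcam1, the counter-receptor of the integrin VLA-4 on lymphocytes and monocytes, had another layout than the selectins. It had 2.41 CPM in IMQ+IDMF, 5.35 and 4.05 CPM in IMQ+VEH, and 2.21 CPM in IMQ. IMQ+IDMF was thus below both vehicle libraries, by -1.12 and -0.73 in log2 CPM, and both differences were larger than the -0.39 within the pair. Being below both vehicle libraries was found for 27.5% of all genes, and for 4 members: Vcam1, Flt4, Angpt2 and Cldn5. The fitted log2 fold change of Vcam1 was -0.96 (SE 0.60, unadjusted p = 0.137, edgeR adjusted p = 1), on 54 counts in IMQ+IDMF, 150 and 83 in IMQ+VEH and 56 in IMQ. Selp lies on chromosome 1 (164115264 to 164150026, GRCm38) and Vcam1 on chromosome 3 (116109949 to 116129688). Exons of both overlap antisense transcripts, and since the strand setting is not given, reads of the partners cannot be told apart. Icam1, a ligand of the integrin LFA-1 that keratinocytes also make, had 19.7 CPM in IMQ+IDMF, 25.9 and 16.8 CPM in IMQ+VEH, and 19.2 CPM in IMQ. Icam2, an LFA-1 ligand of resting endothelium, had 5.10 CPM in IMQ+IDMF, 5.24 and 3.07 CPM in IMQ+VEH, and 2.36 CPM in IMQ. Both lay within the vehicle range.

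The VEGF ligands varied less between libraries than the angiopoietins did. Vegfa had 90.4 CPM in IMQ+IDMF, 95.5 and 81.9 CPM in IMQ+VEH replicates 1 and 2, and 89.6 CPM in IMQ, with a log2 fold change of 0.03 (SE 0.27) between IMQ+IDMF and IMQ+VEH. Vegfc, the ligand of FLT4, had 1.57 CPM in IMQ+IDMF, 1.60 and 1.51 CPM in IMQ+VEH, and 0.749 CPM in IMQ, on 19 to 45 counts per library. These VEGF ligands were thus nearly level across the lotion-treated libraries while Kdr differed by -1.50 in log2 CPM within the vehicle pair. Angpt1, the TEK agonist that perivascular cells release, had 8.63 CPM in IMQ+IDMF, 12.7 and 5.90 CPM in IMQ+VEH, and 4.53 CPM in IMQ. Angpt2, which endothelium releases and which can block TEK, had 1.97 CPM in IMQ+IDMF, 5.03 and 2.10 CPM in IMQ+VEH, and 1.34 CPM in IMQ. Counts of Angpt2 per count of Angpt1, a ratio chosen after the values were seen, were 0.228 in IMQ+IDMF, 0.397 and 0.355 in IMQ+VEH, and 0.296 in IMQ, so IMQ+IDMF had the lowest ratio. Apln, apelin, was the only member highest in IMQ+IDMF, where 19.2% of all genes were (27.7% were above both vehicle libraries), with 2.37 CPM there, 1.93 and 1.61 CPM in IMQ+VEH, and 1.93 CPM in IMQ. Its differences to the vehicle libraries were 0.29 and 0.54 in log2 CPM, both larger in size than the -0.25 within the pair. The log2 fold change was 0.42 (SE 0.69, edgeR adjusted p = 1), on 53 counts in IMQ+IDMF, 54 and 33 in IMQ+VEH and 49 in IMQ. Angpt2 lies on chromosome 8 (18690263 to 18741562, GRCm38), and Apln on chromosome X (48025146 to 48034853).

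Since most blood vessel genes shared 1 layout, the members were also described relative to the vessel level, the median log2 CPM of the 22 blood vessel genes in each library. This level was 3.83 in IMQ+IDMF, 4.26 and 3.36 in IMQ+VEH replicates 1 and 2, and 3.09 in IMQ. The level is taken from these same 22 genes, so their closeness to it is partly built in. On this relative scale all 22 were within 0.5 of the vehicle mean in IMQ+IDMF, from -0.40 (Cldn5) to 0.47 (Robo4). Before the subtraction all 22 were too, from -0.38 to 0.49. The members farthest from the vehicle mean were Flt4 (-1.03), Vcam1 (-0.95), Selp (0.78) and Angpt2 (-0.72). Without the subtraction these 4 had -1.01, -0.92, 0.80 and -0.70, so against the vehicle mean the scale changed little. Flt4 stood below each other library: by -0.93 and -1.13 against IMQ+VEH replicates 1 and 2 and by -1.03 against IMQ. Vcam1 did so by -0.69, -1.20 and -0.61. These were the 2 members of 36 that were lower by more than 0.5 against each of the 3 other libraries. Against IMQ this rests on the subtraction, since the vessel level was 3.83 in IMQ+IDMF and 3.09 in IMQ. Without it, Vcam1 in IMQ+IDMF lay slightly above IMQ, and Flt4 lay below IMQ by less than on the relative scale. Within the vehicle pair their relative difference was 0.20 for Flt4 and 0.51 for Vcam1, so Vcam1 moved apart from the vessel level between the vehicle libraries as well. Selp was 0.35 above replicate 1, 1.20 above replicate 2 and -0.03 against IMQ, and differed by -0.85 within the vehicle pair. With the mean of Pecam1 and Cdh5 as the vessel level, an alternative chosen after the data were seen, the values against the vehicle mean were -0.97 for Flt4, -0.89 for Vcam1, 0.83 for Selp and -0.67 for Angpt2. No test was made on the relative scale.

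**Figure D3:**
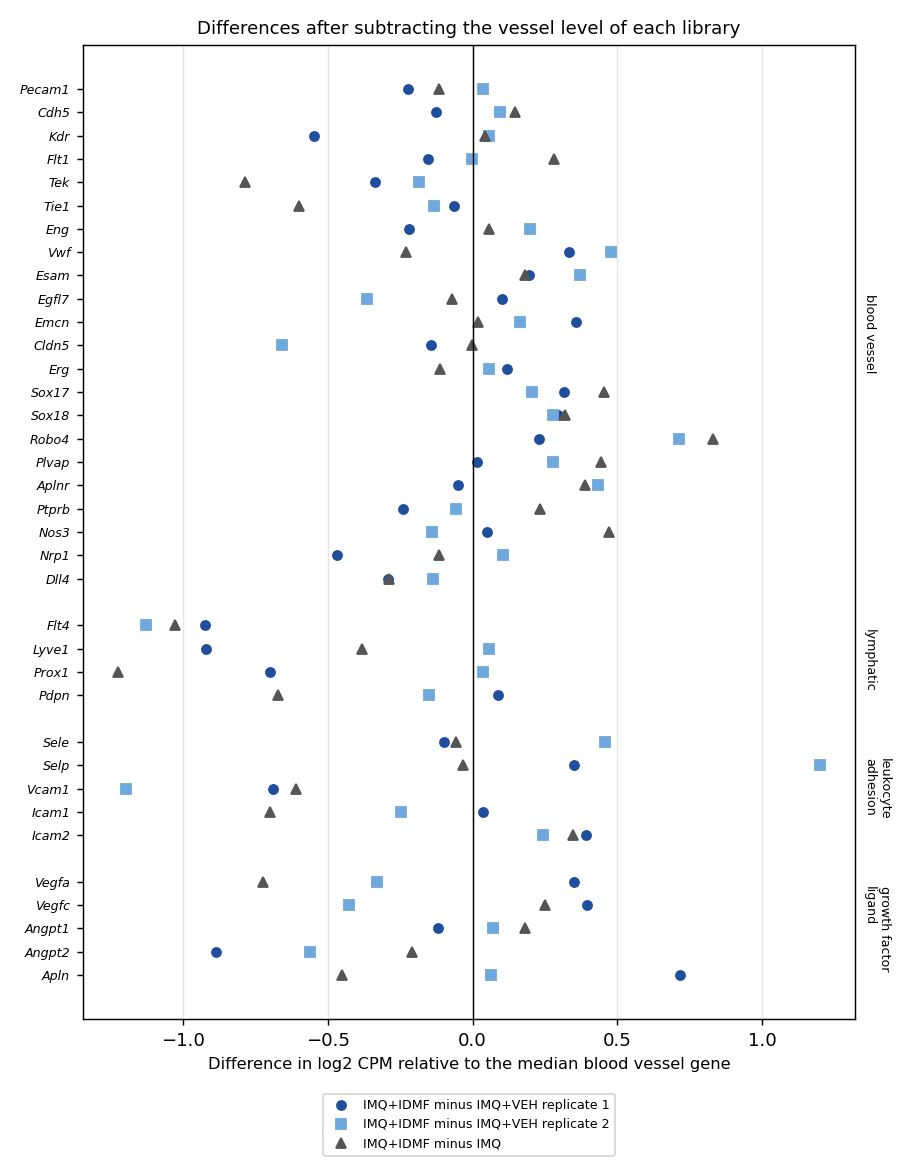
Difference in log2 CPM of IMQ+IDMF to IMQ+VEH replicates 1 and 2 and to IMQ for each member, after the median of the 22 blood vessel genes was subtracted in each library. Flt4 and Vcam1 are the 2 members with all 3 points below -0.5.

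IMQ+VEH against IMQ shows the skin with and without the compound-free lotion. Blood vessel genes were higher in the vehicle libraries: both lay above IMQ for 19 of 22, and for 25 of 36 members, against 33.6% of all genes. Apln was the 1 member with neither above IMQ, by -0.00 in replicate 1, which is practically level, and by -0.25 in replicate 2. Both libraries lay below IMQ for 35% of all genes. The median difference in log2 CPM over the members was 0.76 for the mean of the pair, made of 1.20 for replicate 1 and 0.17 for replicate 2, beside -0.01 over all genes. No member was called by edgeR (0 of 36, where 0.664% of all genes were called, 0.338% as higher and 0.325% as lower in IMQ+VEH). Unadjusted p-values were under 0.05 for 7 members, all of them blood vessel genes, where 1327 of 15068 genes had such a value. DESeq2 called 0 members too, with 6 at an unadjusted p under 0.05. The smallest adjusted p was 0.346, for Ptprb, a phosphatase that restrains TIE2 (32.6 CPM in IMQ+IDMF, 51.8 and 24.4 CPM in IMQ+VEH, 16.6 CPM in IMQ, log2 fold change of IMQ+VEH to IMQ 1.20, SE 0.41). Nos3 had 1.29 (SE 0.46, edgeR adjusted p = 0.364) and Plvap 1.13 (SE 0.41, edgeR adjusted p = 0.382). Cldn5 (1.14, SE 0.45), Flt1 (1.18, SE 0.49), Egfl7 (0.80, SE 0.34) and Cdh5 (0.99, SE 0.42) were the others. Cldn5, Nos3 and Egfl7 were higher than IMQ in replicate 2 by 0.92, 0.87 and 0.56 in log2 CPM, whereas Pecam1 was higher by 0.11 there and by 1.27 in replicate 1. On the other strand, exons of Nos3 overlap the protein-coding gene Atg9b and those of Egfl7 overlap Agpat2. The strand setting is not given, so reads of these neighbours may not be told apart. The lymphatic median was 0.39, the leukocyte adhesion median 0.48 and the ligand median 0.92. With replicate 2 alone the lymphatic median was -0.22 and the adhesion median -0.19, and the blood vessel median was 0.23, against 1.31 with replicate 1 alone. With no filter on low counts, edgeR called 2 members higher in IMQ+VEH, Plvap (adjusted p = 0.0134) and Ptprb (adjusted p = 0.0157), with 424 of 17527 genes called.

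Against IMQ, with 1 library on each side and no test, IMQ+IDMF was higher for 33 of 36 members, where 50.2% of all genes were higher. The median difference was 0.69 in log2 CPM over the members and 0.79 over the blood vessel genes, beside 0.00 over all genes. More than 2-fold higher were 8 members, against 6.78% of all genes, and 7 of these were blood vessel genes. Robo4 had the widest difference, 1.57, followed by Nos3 (1.21) and Sox17 (1.19). Tek (-0.05), Flt4 (-0.29) and Prox1 (-0.49) were the 3 members below IMQ. Among cell type markers, 6 of 6 for smooth muscle (median 1.82) and 6 of 6 for adipocytes (median 1.95) were also more than 2-fold higher. For skeletal muscle this was 2 of 6, and for pericytes and fibroblasts 1 of 8 each. No macrophage or keratinocyte marker was. These values share the IMQ library with the comparison of IMQ+VEH with IMQ.

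Further genes of vessels and angiogenesis were taken from 7 lists, 83 of which passed the filter. None was called in either comparison (edgeR), with 6 at an unadjusted p under 0.05 for IMQ+IDMF against IMQ+VEH and 19 for IMQ+VEH against IMQ. DESeq2 called 0 of the 83 in both, with 5 and 19 at such a p. IMQ+VEH replicate 2 was lower than replicate 1 for 69 of the 83, against 53% of all genes, with a median of -0.66 in log2 CPM. The rest of the layout was weaker than in the members. IMQ+IDMF lay between the vehicle libraries for 44 of the 83, against 44.8% of all genes and 31 of 36 members. Replicate 1 was the highest library for 50, against 29% of all genes and 35 of 36 members. The median difference of the vehicle mean to IMQ was 0.27, beside 0.76 over the members. In the list of leukocyte integrins and other partners of the adhesion molecules, 8 of 12 were below both vehicle libraries in IMQ+IDMF, against 27.5% of all genes, and 4 had an unadjusted p under 0.05, as 306 of the 15068 genes did. Itgal, the LFA-1 alpha chain that binds ICAM-1, had 1.43 CPM in IMQ+IDMF, 6.52 and 3.76 CPM in IMQ+VEH, and 7.84 CPM in IMQ (log2 fold change to IMQ+VEH -1.85, SE 0.61, edgeR adjusted p = 1). Itgam, the Mac-1 alpha chain of myeloid cells, had 13.1 CPM in IMQ+IDMF, 52.3 and 19.7 CPM in IMQ+VEH, and 34.6 CPM in IMQ (-1.46, SE 0.48, edgeR adjusted p = 1). IMQ+IDMF was the lowest library for both, and for 7 of the 12 genes of this list, against 19.5% of all genes, but for neither selectin of the vessel wall. Whether the lists differ was not tested. Cd34, a sialomucin of small vessels that fibroblasts and hair follicle cells also carry, had 82.1 CPM in IMQ+IDMF, 197 and 118 CPM in IMQ+VEH, and 82.4 CPM in IMQ (-0.94, SE 0.34, edgeR adjusted p = 1). Serpinf1, the angiogenesis inhibitor PEDF, had 41.7 CPM in IMQ+IDMF, 117 and 59.1 CPM in IMQ+VEH, and 35.8 CPM in IMQ (-1.08, SE 0.37, edgeR adjusted p = 1). For IMQ+VEH against IMQ, Tgfbr2, a TGF-beta receptor, had 1.12 (SE 0.30, edgeR adjusted p = 0.174), Adamts1, a protease with anti-angiogenic activity, -1.17 (SE 0.32, edgeR adjusted p = 0.175), and Ramp2, a partner of the adrenomedullin receptor, 1.38 (SE 0.43, edgeR adjusted p = 0.272). Caveolin-1 (Cav1) had 1.14 (SE 0.34, edgeR adjusted p = 0.245), thrombomodulin (Thbd) -0.85 (SE 0.27, edgeR adjusted p = 0.274), the VEGF family ligand Vegfb 0.79 (SE 0.31, edgeR adjusted p = 0.447) and the Notch receptor Notch4 1.48 (SE 0.57, edgeR adjusted p = 0.437). Further genes with the smallest p-values of their lists were Ramp3 (-1.14), Sema3a (-0.54), Jag2 (0.54), Jag1 (0.21), S1pr1 (-0.64), Fli1 (-0.79), Reln (-0.86), Mmrn1 (-0.52) and Thbs2 (-0.47) for the log2 fold change of IMQ+IDMF to IMQ+VEH. For IMQ+VEH to IMQ they were Id3 (1.02), Gja4 (0.84), Itga9 (1.21), Jam2 (1.24) and Jam3 (1.32), and none of these 14 was called.

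Markers of other dermal cells differed along with the vessel genes within the vehicle pair. Replicate 2 was lower than replicate 1 for 8 of 8 fibroblast markers (median -1.06 in log2 CPM), 7 of 8 pericyte markers (-0.91), 6 of 6 smooth muscle markers (-1.16) and 6 of 6 adipocyte markers (-0.56). The same held for 8 of 8 macrophage markers (-0.87) and 6 of 6 skeletal muscle markers (-0.32). For keratinocyte markers it was 1 of 7 (0.12), and over all genes 53% (-0.03). In IMQ+IDMF these lists parted. Fibroblast markers were below both vehicle libraries for 8 of 8 genes, against 27.5% of all genes. The list summed to 2191 CPM in IMQ+IDMF, 3333 to 6399 CPM in IMQ+VEH and 1718 CPM in IMQ. Smooth muscle markers lay between the vehicle libraries for 4 of 6, against 44.8% of all genes. The list summed to 224 CPM in IMQ+IDMF, 111 to 247 CPM in IMQ+VEH and 61.5 CPM in IMQ. Pericyte markers lay between them for 6 of 8, against the same 44.8%. This list, which holds Des, a gene that skeletal muscle also uses, summed to 1522 CPM in IMQ+IDMF. It had 1331 to 1396 CPM in IMQ+VEH and 1031 CPM in IMQ. Against IMQ, 6 of 6 adipocyte markers were higher in both vehicle libraries (33.6% of all genes). Of these, 3 (Adipoq, Plin1 and Cidec) were called, where 0.338% of all genes were called as higher. The list summed to 1500.5 CPM in IMQ+IDMF, 1369 to 1899.9 CPM in IMQ+VEH and 520.2 CPM in IMQ. Keratinocyte markers were lower than IMQ in both vehicle libraries for 5 of 7 (35% of all genes). In IMQ+IDMF 7 of 7 were above both vehicle libraries (27.7% of all genes) and 4 of 7 above IMQ (50.2% of all genes). The list summed to 11835 CPM in IMQ+IDMF, 9429 to 10086 CPM in IMQ+VEH and 15993 CPM in IMQ. Against IMQ the sum was thus lower in IMQ+IDMF although 4 of the 7 markers were higher. Skeletal muscle markers had 19275 CPM in IMQ+IDMF, 14616 to 20537 CPM in IMQ+VEH and 10689 CPM in IMQ. Between the vehicle libraries lay 5 of 6 adipocyte and 4 of 6 skeletal muscle markers in IMQ+IDMF, against 44.8% of all genes. No marker of these lists was at 0 in all libraries. The share of dermis, fat or muscle in each piece of skin was not measured, and the part of these cells in the vessel values was not tested.

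**Figure D4:**
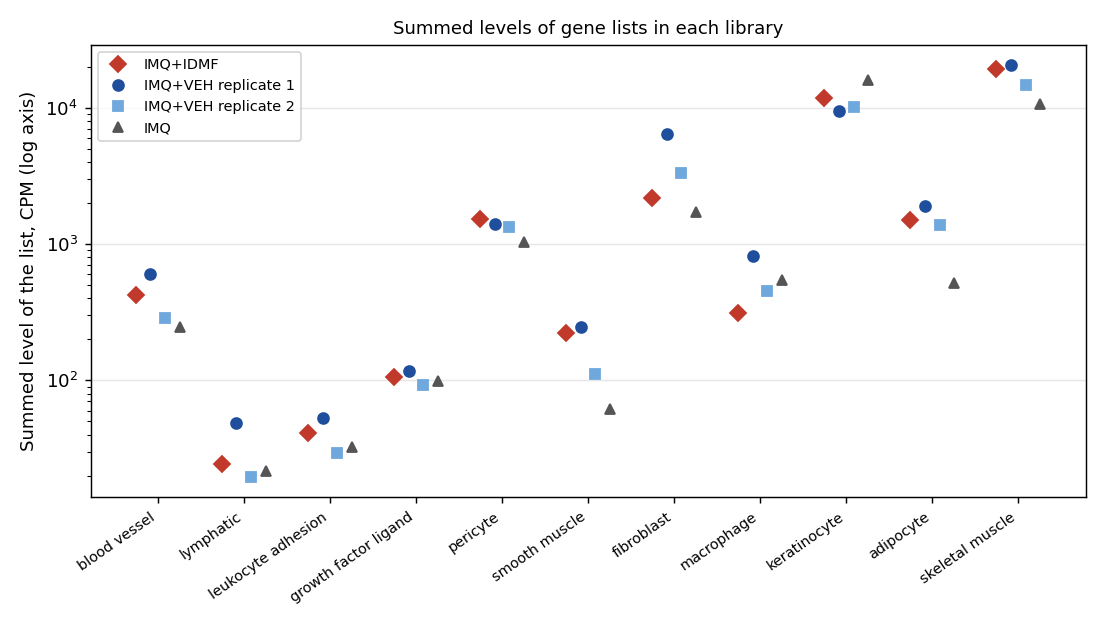
Summed CPM of the 4 subgroups of members and of 7 lists of cell type markers (vertical axis, logarithmic) for each list along the horizontal axis, each point 1 library. Blood vessel genes sum to 424 CPM in IMQ+IDMF, 603 and 287 CPM in IMQ+VEH replicates 1 and 2, and 247 CPM in IMQ.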

How the data were processed

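For each library the authors deposited a table with a raw count and an FPKM value (fragments scaled by transcript length and library size) for 20611 gene symbols, per the file headers. TopHat2, Cufflinks, HTSeq and builds GRCm38 and mm10 are listed in the submitters' processing notes. The sources used here give no versions, annotation, strand setting or treatment of reads with several positions. Groups came from the sample labels.

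The test on counts was edgeR's (version 4.0.16, R 4.3.3) two-sided quasi-likelihood F test, with TMM scaling, filterByExpr and 1 mean per group. Benjamini-Hochberg adjustment ran over the 15068 genes left by the filter, with a threshold of 0.05. Only the vehicle pair gave a residual degree of freedom (1), beside 11.2 prior ones, and genes shared a biological coefficient of variation of 24.0%. The sequencing core number of 1 library, IMQ+VEH replicate 2, is far from the rest. No source used here says if it was a batch of its own, and a batch cannot be told apart from the spread of the pair. SE was taken as the size of the log2 fold change over the root of F. Differences without a test are of log2 CPM with a prior count of 2. Fitted fold changes weigh the vehicle libraries by counts and can differ from these. The procedure was tested on simulated data in which the vehicle libraries had no shared gap. That run therefore does not bear on the gap between them seen here.

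The members and lists were chosen with earlier results of these data known, so the counts describe these libraries and are no independent evidence. All members are given. Values in each library were written out by role, and always for members outside all 3 other libraries, members whose differences to both vehicle libraries exceed that within the pair, the 3 highest and lowest by FPKM and the 4 farthest from the vessel level. Of each other vessel list, the text gives the genes with the 2 smallest p-values per comparison, except Foxc2, which had 1 count in IMQ. Of 140 further symbols listed, some of them older names of the same gene, 136 were in the tables. Positions came from GENCODE (GRCm38), where exons of 10 members overlap genes on the other strand and those of 2 (Egfl7 and Nrp1) genes on the same strand, and sequences from RefSeq (GRCm38.p6). Alternatives were DESeq2 1.42.0, other scaling, filters and prior counts, FPKM, a robust fit, pooled controls and leaving out libraries.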

Additional observations from a re-analysis of the deposited data

How the results depend on the processing

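No member was called for IMQ+IDMF against IMQ+VEH under any of the 8 alternatives run. The number of all genes called there was 16 with no filter on low counts and 0 under the others. For IMQ+VEH against IMQ it was 202 by DESeq2 and 424 with no filter, where the 2 members called were Plvap and Ptprb, against 100 as reported. Of these calls 140 and 310 were higher in IMQ+VEH, against 51 of the 100. No paired analysis was possible because only IMQ+VEH has 2 libraries. Leaving out 1 vehicle library at a time, the medians for IMQ+IDMF against IMQ+VEH ranged from -0.49 to 0.55 (blood vessel), from -1.24 to 0.42 (lymphatic), from -0.39 to 0.72 (adhesion) and from -0.08 to 0.14 (ligands), and those for IMQ+VEH against IMQ from 0.23 to 1.31 (blood vessel), from -0.22 to 0.85 (lymphatic), from -0.19 to 1.12 (adhesion) and from 0.38 to 1.02 (ligands). Members with IMQ+IDMF above IMQ+VEH numbered 1 to 32, against 17 for the mean of the pair. The direction thus depends on which vehicle library is used. With IMQ and IMQ+VEH as 1 group, log2 fold changes of IMQ+IDMF became positive for Pecam1 (0.0359), Cdh5 (0.16), Flt1 (0.14), Eng (0.11), Egfl7 (0.0922), Ptprb (0.0727), Nos3 (0.25) and Angpt1 (0.16). That of Vegfc was -0.0017 by DESeq2 and -0.0021 with its size factors, and that of Vegfa in IMQ+VEH against IMQ was 0.0591 with total counts. Total counts moved the median of all genes within the vehicle pair to -0.15. The numbers of members highest in IMQ+VEH replicate 1 and of members lower in replicate 2 were the same under all 3 scalings. So were those with IMQ+IDMF between the pair and those with both vehicle libraries above IMQ. The full orders of libraries were not recounted. Members with few counts (Prox1, Vegfc, Angpt2, Flt4, Apln) limit what can be seen.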
